A study of Mus musculus with 18 samples.

Results

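The genes described here are the transcription factor Myc, its dimerization partner Max, the antagonists Mxd4 and Mxi1, and 6 amino acid transporter genes, Slc7a5, Slc3a2, Slc1a5, Slc7a1, Slc38a2 and Slc7a11. These 10 genes were chosen by name, as the machinery through which a B cell enters growth, and with earlier results of these data known. Each symbol was matched to 1 of the 51912 gene identifiers in the files through the GRCm38 annotation. RNA sequencing covered 18 libraries of C57BL/6 mouse B cells in 3 states: transitional B cells, follicular B cells taken ex vivo, and follicular B cells treated with CD40L, the T cell helper ligand, for 14 h as the sample labels give it. Each state was measured in WT and in Sh3gl1-/- cells with 3 replicates per group. Sh3gl1 encodes endophilin A2, a membrane-curving protein of endocytosis. The Sh3gl1-/- mice lack the gene in the whole body, so cells other than B cells were deficient too, and the WT mice were littermates. No other allele or agent was named for any group, and no group was cultured without CD40L, so the effects of culture and of CD40L cannot be told apart. The transporters were followed under CD40L in both genotypes, because a cell that starts to grow has to raise its amino acid supply.

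MYC binds DNA as a heterodimer with MAX at the E-box, and the MXD proteins and MXI1 compete for MAX and repress the same kind of site. SLC7A5 (LAT1) imports large neutral amino acids such as leucine and works only when bound to the glycoprotein SLC3A2 (CD98), which also carries SLC7A11 (xCT), the cystine importer. SLC1A5 (ASCT2) imports glutamine, SLC7A1 (CAT1) imports arginine and lysine, and SLC38A2 (SNAT2) imports small neutral amino acids and is known as a gene of the amino acid starvation response. In lymphocytes Myc is an early target of activation signals and MYC is required for the rise of LAT1 that precedes cell division.

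Library totals ran from 12404665 to 18366011 expected counts, and values below are CPM, which are counts scaled to library size by the trimmed mean of M values, unless a sentence names another unit. A rise or fall in CPM is relative to the rest of the library and gives no level per cell. Sh3gl1 held 377 to 929 counts in the WT libraries and 1 to 22 in the Sh3gl1-/- libraries. The summed level of 5 B cell markers (Cd79a, Cd79b, Ms4a1, Pax5, Cd22) was 7085 to 16623 CPM in every library. The transitional markers Cd93, Cd24a, Vpreb3 and Rag1 summed to 871 to 1008 CPM in the WT transitional libraries, against 374 to 457 in the WT follicular ones.

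On the scale of TPM, the share of transcripts after correction for gene length, Myc (66.4 ± 6.1, SD, n = 3) and Slc1a5 (64.2 ± 5.3) were the most abundant of the 10 in WT follicular cells ex vivo, and their ranges overlapped. Max followed at 41.6 ± 2.9 TPM. Slc3a2 and Slc38a2 came next, at 28.3 ± 9.2 and 26.6 ± 4.1 TPM, with overlapping ranges. Mxd4 (11.3 ± 1.2 TPM) and Slc7a1 (8.32 ± 0.63 TPM) stood apart from each other, Mxi1 (1.74 ± 0.29 TPM) and Slc7a5 (1.42 ± 0.49 TPM) did not, and Slc7a11 was lowest at 0.0933 ± 0.0902 TPM. After CD40L the WT order opened with Myc at 122 ± 46.2 TPM, above every other member. Slc7a5 then lay above Mxi1, at 4.95 ± 0.24 against 0.483 ± 0.225 TPM.

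**Figure D1:**
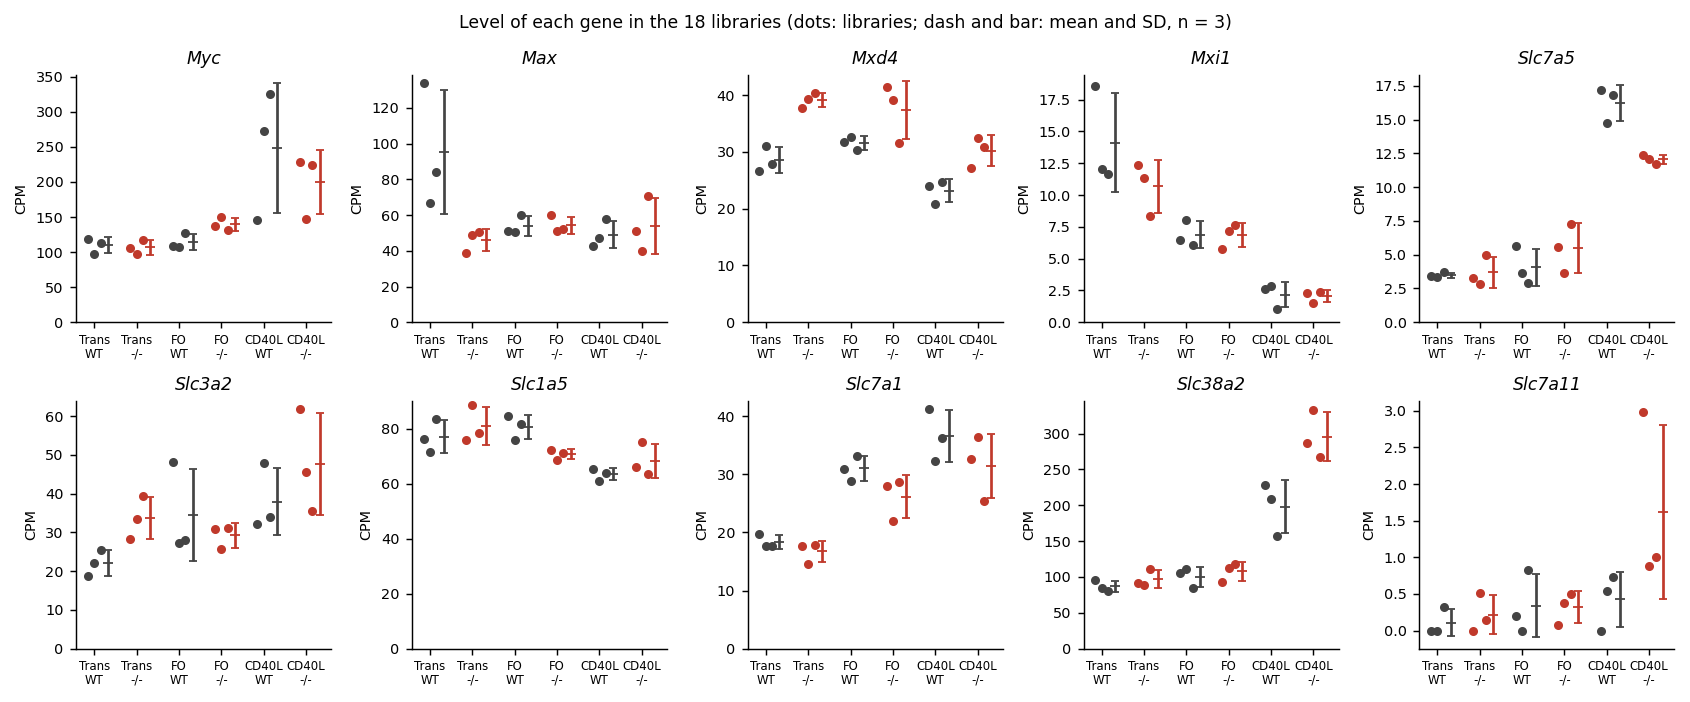
Level of each of the 10 genes in CPM (y axis, 1 panel per gene, each with its own scale) in the 6 groups on the x axis, WT in grey and Sh3gl1-/- (written -/-) in red, with each library as a dot and the mean and SD of 3 libraries beside them. Myc, Slc7a5 and Slc38a2 are high in the CD40L-cultured libraries, Mxi1 is low there, and the WT CD40L libraries of Myc spread from 146 to 326 CPM.

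Under CD40L, WT follicular cells raised Myc about 2-fold, Slc7a5 about 4-fold and Slc38a2 about 2-fold, and lowered Mxi1 about 3-fold. Mxd4 and Slc1a5 fell by smaller steps. Of the 10 genes 3 rose, 3 fell and 4 did not pass the test (adjusted p under 0.05 in edgeR's quasi-likelihood test), while 49.3% of all 14460 genes tested passed it, 23.6% upward and 25.7% downward. The share among the 10 genes was therefore close to that of all genes, and what follows rests on the single genes.

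Myc, on chromosome 15 (chr15:61985391-61990374, plus strand, GRCm38), was at 108, 107 and 127 CPM in the WT follicular libraries ex vivo and at 146, 273 and 326 CPM after CD40L. The CD40L libraries all lay above the ex vivo ones, with replicate 1 nearest to them. On the log2 scale this was a change of 1.09 ± 0.23 (SE; adjusted p = 0.0014 by edgeR's quasi-likelihood test), and it ranged from 0.85 to 1.35 when single libraries were left out. Among Sh3gl1-/- cells the 3 ex vivo libraries held 137, 150 and 131 CPM of Myc and the CD40L libraries 228, 147 and 224 CPM. Here the groups overlapped, since replicate 2 of the CD40L libraries stayed within the ex vivo range. The log2 fold change of 0.49 ± 0.23 missed the threshold (adjusted p = 0.099 by edgeR's quasi-likelihood test), and it passed without that library (0.68), without WT CD40L replicate 1 (0.51) or when all genes with at least 1 count were kept (0.51, adjusted p = 7.0e-04). The difference between the genotypes' responses was -0.60 ± 0.32 (unadjusted p = 0.088, adjusted p = 0.62 by the same edgeR model), with an approximate 95% interval of -1.23 to 0.04.

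Max (chr12:76937269-76962201, minus strand), the obligate partner, did not pass the test in either genotype. Its WT libraries were at 51.1, 50.3 and 60.3 CPM ex vivo and at 42.5, 47.2 and 57.5 CPM under CD40L, and the 2 groups overlapped. The log2 fold change was -0.17 ± 0.18 in WT and -0.03 ± 0.18 in Sh3gl1-/- cells. The Myc to Max ratio in TPM, a ratio of transcripts and not of proteins, was 1.56 to 1.63 in the WT libraries ex vivo and 2.58 to 4.44 after CD40L. In the Sh3gl1-/- libraries it was 1.81 to 2.42 ex vivo and 2.38 to 3.48 after CD40L, with the lowest CD40L library inside the ex vivo range.

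Both antagonists fell in WT cells under CD40L. Mxi1 (chr19:53310518-53375810, plus strand) held 6.46, 8.07 and 6.10 CPM in WT cells ex vivo and 2.61, 2.88 and 1.04 CPM after CD40L, and 5.77, 7.16 and 7.65 CPM falling to 2.27, 1.51 and 2.37 CPM in Sh3gl1-/- cells. No CD40L library reached an ex vivo one. Mxi1 had the deepest fall of the 10 genes, with a log2 fold change of -1.69 ± 0.34 in WT (adjusted p = 9.9e-04) and -1.75 ± 0.35 in Sh3gl1-/- cells (adjusted p = 0.0011, both by edgeR's quasi-likelihood test). The difference between these responses was -0.06, with an approximate 95% interval of -1.002 to 0.88.

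Mxd4 (chr5:34173883-34187720, minus strand), an antagonist known from cells that leave the cycle, fell less. Its WT libraries were at 31.8, 32.7 and 30.3 CPM ex vivo and 24.1, 20.8 and 24.7 CPM after CD40L, without overlap (log2 fold change -0.48 ± 0.14, adjusted p = 0.010 by edgeR's quasi-likelihood test). Without WT ex vivo replicate 2 the change was -0.41 and no longer passed. The Sh3gl1-/- libraries went from 41.4, 39.2 and 31.7 CPM to 27.1, 32.5 and 31.0 CPM, and 1 ex vivo library lay within the CD40L range. That change of -0.33 ± 0.14 did not pass (adjusted p = 0.065 by the same edgeR model), and it passed without ex vivo replicate 3 (-0.43) and in the fit to all 18 libraries.

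The E-box letters CACGTG, which MYC, MAX and the MXD proteins are known to bind and which read the same on both strands, were looked for in the RefSeq promoter windows (GRCm38.p6) of 250 bases before to 50 bases after each gene start. Of the 10 members, Myc, Slc7a5 and Slc1a5 had no entry and were not searched. The other 7 had 10 windows in all. The letters were found in 2 of them, Mxd4 at 219 bases and Max at 3 bases before the start, and in 7.15% of all 32851 windows. For Max, a stretch after the start of the window was not found in any annotated Max transcript. Its distance is therefore from the window's start and may not be that of the annotated gene. The 250 bases before the Mxd4 start, on the minus strand at chr5:34187711-34187960, are shown with the E-box in capitals. Mxd4 was picked because it passed the test between the genotypes in transitional cells. That call was lost when any single transitional library was left out, and with a replicate block.
Mxd4: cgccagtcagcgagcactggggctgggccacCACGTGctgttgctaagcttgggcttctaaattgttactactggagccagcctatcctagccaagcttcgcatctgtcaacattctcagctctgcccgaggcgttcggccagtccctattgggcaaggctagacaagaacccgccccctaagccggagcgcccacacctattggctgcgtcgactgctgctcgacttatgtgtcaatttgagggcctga

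Slc7a5 (chr8:121881150-121907694, minus strand), the LAT1 subunit that passes the amino acid, had the highest fold change of the transporters that rose in WT cells, while in Sh3gl1-/- cells Slc38a2 rose by more. It was at 5.62, 3.63 and 2.94 CPM in the WT libraries ex vivo and at 17.2, 14.7 and 16.8 CPM after CD40L. The Sh3gl1-/- libraries held 5.55, 3.61 and 7.29 CPM ex vivo and 12.4, 12.1 and 11.7 CPM after CD40L. In each genotype every CD40L library was above every ex vivo library, and the 3 Sh3gl1-/- CD40L libraries were all below the 3 WT ones. The log2 fold change was 1.96 ± 0.27 in WT (adjusted p = 4.3e-05) and 1.12 ± 0.27 in Sh3gl1-/- cells (adjusted p = 0.0039, both by edgeR's quasi-likelihood test). The responses differed by -0.84 ± 0.38 (unadjusted p = 0.041, adjusted p = 0.55 in the same edgeR model), a difference that did not pass and that ranged from -1.13 to -0.58 when single libraries were left out. Slc7a5 lies inside Gm20388 on the opposite strand, a gene model with 104 to 250 counts per library, and it is not stated whether the counting used strand.

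Slc3a2 (chr19:8706882-8723369, minus strand), the CD98 heavy chain that LAT1 needs, was already far more abundant than its partner. Its WT libraries were at 48.2, 27.2 and 28.1 CPM ex vivo and 32.1, 47.8 and 33.9 CPM after CD40L, and they overlapped (log2 fold change 0.10 ± 0.24, adjusted p = 0.74 by edgeR's quasi-likelihood test). The Sh3gl1-/- levels of 30.9, 25.6 and 31.2 CPM became 61.8, 45.5 and 35.6 CPM, without overlap. This rise of 0.68 ± 0.24 passed (adjusted p = 0.035 by edgeR's quasi-likelihood test) and no longer did without CD40L replicate 1 (0.47) or without any one of the 3 ex vivo replicates (0.63 to 0.74). The 2 responses differed by 0.58 ± 0.34, which did not pass. The Slc3a2 to Slc7a5 ratio in TPM was 18.1 to 22.3 in WT libraries ex vivo and 4.24 to 7.60 after CD40L. In Sh3gl1-/- libraries it was 10.4 to 17.0 ex vivo and 6.87 to 11.5 after CD40L, so that the ranges touched only in this genotype.

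Slc38a2 (chr15:96687392-96699730, minus strand), the SNAT2 importer of small neutral amino acids, rose in both genotypes. The WT libraries went from 106, 111 and 84.1 CPM to 228, 209 and 157 CPM, and the Sh3gl1-/- libraries from 92.6, 113 and 118 CPM to 287, 333 and 267 CPM. All CD40L libraries stood above all ex vivo libraries, and the 3 Sh3gl1-/- CD40L libraries stood above the 3 WT ones. Its log2 fold change was 0.95 ± 0.16 in WT (adjusted p = 2.2e-04) and 1.43 ± 0.16 in Sh3gl1-/- cells (adjusted p = 8.7e-06, both by edgeR's quasi-likelihood test). The responses differed by 0.48 ± 0.22 (unadjusted p = 0.048, adjusted p = 0.56 in the same edgeR model).

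Slc1a5 (chr7:16781340-16798274, plus strand), the glutamine transporter, was in TPM the most abundant transporter transcript of the 6 ex vivo. After CD40L it was lower in WT cells, from 84.6, 76.0 and 81.7 CPM to 65.2, 61.2 and 64.0 CPM (log2 fold change -0.38 ± 0.10, adjusted p = 0.0061 by edgeR's quasi-likelihood test). The Sh3gl1-/- levels of 72.2, 68.6 and 71.2 CPM ex vivo and 66.2, 75.3 and 63.6 CPM after CD40L overlapped, with a change of -0.07 ± 0.10. The difference of responses was 0.31 ± 0.14 (unadjusted p = 0.045, adjusted p = 0.56 in the same edgeR model).

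Slc7a1 (chr5:148327410-148399904, minus strand), the arginine and lysine importer, was at 28.9 to 33.3 CPM in WT cells ex vivo and 32.4 to 41.3 CPM after CD40L. Without endophilin A2 it was at 21.9 to 28.7 CPM and then 25.5 to 36.4 CPM. The changes of 0.21 ± 0.16 and 0.24 ± 0.16 did not pass, and their difference was 0.03 with an approximate 95% interval of -0.41 to 0.47.

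Slc7a11 (chr3:49892526-50443614, minus strand) was near the limit of detection, where 3 counts were taken as the floor. Its WT libraries held 3, 0 and 11 counts ex vivo and 0, 8 and 12 after CD40L. The Sh3gl1-/- libraries held 1, 6 and 7 counts ex vivo and 42, 11 and 16 after CD40L, the latter all above the former, but replicate 1 alone held most of these counts. The test did not pass in Sh3gl1-/- cells (log2 fold change 2.27 ± 1.07, adjusted p = 0.10 by edgeR's quasi-likelihood test) or in WT cells (0.35 ± 1.13), and it passed in Sh3gl1-/- cells when all genes with at least 1 count were kept. The letters TGATGNAA, the form of the CEBP-ATF element that the starvation factor ATF4 is known to bind, were looked for on both strands of the same promoter windows. They were found in 3.97% of all windows. Among the 7 members with a window, which leave out Myc, Slc7a5 and Slc1a5, they were found in Slc7a11 alone. They lay at 66 bases before the start and, on the other strand, at 47 bases before it. The 250 bases before its start (minus strand, chr3:50443614-50443863) are shown with both matches in capitals.
Slc7a11: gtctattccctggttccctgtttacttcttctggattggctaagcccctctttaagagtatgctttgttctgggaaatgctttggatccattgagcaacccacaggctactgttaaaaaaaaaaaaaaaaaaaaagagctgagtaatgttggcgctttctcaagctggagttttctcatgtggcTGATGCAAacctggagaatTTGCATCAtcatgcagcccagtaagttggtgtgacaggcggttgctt

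In Sh3gl1-/- cells 3 of the 10 genes rose under CD40L (Slc7a5, Slc38a2, Slc3a2), 1 fell (Mxi1) and 6 did not pass, against 42.4% of all genes tested, 20.6% upward and 21.8% downward. No member passed the test of the difference between the responses, nor did any of the 14460 genes (0 of all, so 0%). At an unadjusted p under 0.05 edgeR's quasi-likelihood test gave 3 of the 10 members, Slc7a5, Slc38a2 and Slc1a5, and 1278 of all genes (8.84%), while DESeq2 gave 0 members and 37 genes at an adjusted p under 0.05. A response that passed in 1 genotype only, as for Myc, Mxd4, Slc1a5 and Slc3a2, is therefore not shown to differ between them.

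**Figure D2:**
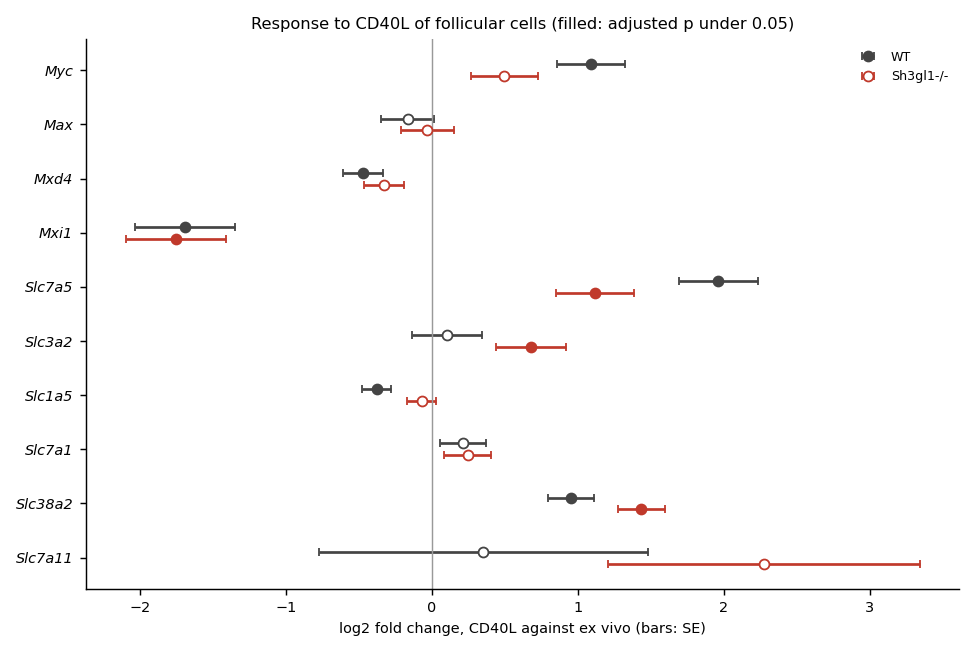
Log2 fold change of each gene under CD40L against the ex vivo follicular cells (x axis) in WT (grey) and Sh3gl1-/- cells (red), with SE bars and filled symbols for an adjusted p under 0.05. Slc7a5 rises by 1.96 in WT and 1.12 in Sh3gl1-/- cells, Mxi1 falls in both, and the 2 bars of Slc7a11 are the widest.

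The genes that MYC is known to activate were taken as a list of 23 textbook targets. Many belong to ribosome production, and others include Cad of nucleotide synthesis and Ldha of glycolysis. The list was chosen with earlier results of these data known, and its genes are read from the same libraries. The shares below therefore describe the list and do not test it. In WT cells all 23 rose under CD40L, as did 23.6% of all genes, with a median log2 fold change of 1.40 against -0.08 over all genes tested. The 3 with the lowest adjusted p were Nop16 (1.85 ± 0.12), a nucleolar ribosome factor, Apex1 (1.78 ± 0.12), a DNA repair endonuclease, and Ptma (0.92 ± 0.06), which encodes prothymosin alpha. Without endophilin A2 22 of the 23 rose, against 20.6% of all genes, with a median of 0.92. Polr1b, a subunit of RNA polymerase I, was the exception (0.64 ± 0.26, adjusted p = 0.061 by edgeR's quasi-likelihood test). None of the 23 passed the test of the difference between responses. Of them 11 had an unadjusted p under 0.05, against 8.84% of all genes, 20 had a smaller estimate in Sh3gl1-/- cells, against 49.4% of all genes, and the median difference was -0.47 against 0.01 over all genes. Nop16 fell short with -0.54 ± 0.16 (adjusted p = 0.47 by the same edgeR model).

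Library by library, the mean log2 CPM of these 23 genes was 6.46 to 6.80 in the 12 ex vivo libraries. It was 7.75, 7.97 and 8.27 in the WT CD40L libraries and 7.79, 7.46 and 7.76 in the Sh3gl1-/- ones, so that the genotypes overlapped. WT replicate 1, with Myc at 146 CPM, and Sh3gl1-/- replicate 2, with Myc at 147 CPM, had the lowest mean of their group. Myc at a similar ex vivo level, 150 CPM in replicate 2 of the Sh3gl1-/- follicular libraries, went with a mean of 6.69.

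**Figure D3:**
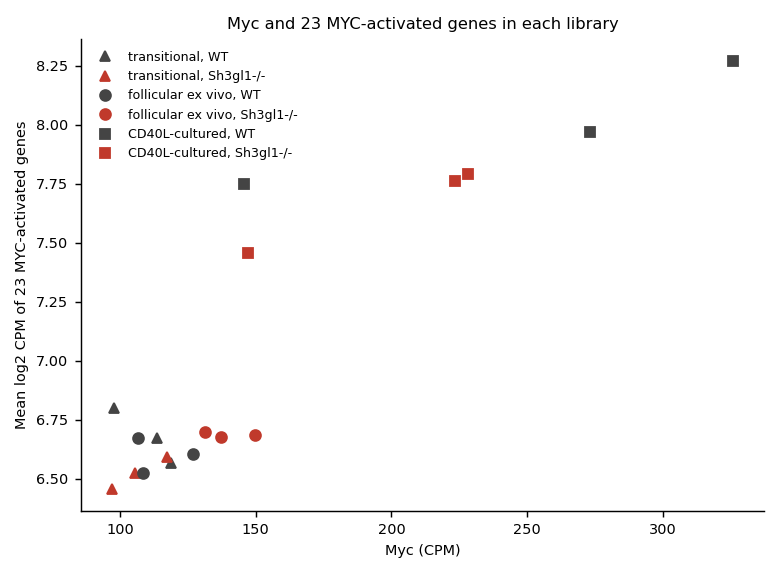
Myc in CPM (x axis) and the mean log2 CPM of 23 MYC-activated genes (y axis) in each of the 18 libraries, WT in grey and Sh3gl1-/- in red, with triangles for transitional, circles for ex vivo follicular and squares for CD40L-cultured cells. The squares lie at 7.46 to 8.27 and all other points at 6.46 to 6.80, while the Myc levels of a CD40L library near 146 CPM and of the highest ex vivo library overlap.

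Of 9 further genes of the MYC network 7 could be tested in WT cells, where 1 rose and 4 fell (71.4% called, against 49.3% of all genes), with a median of -1.31. Mxd3, the antagonist known from dividing cells, rose by 1.75, while Mnt (-2.003), an antagonist present in resting cells, Mlxip (-1.42), the glucose-sensing partner of Mlx, and Mxd1 (-1.31) fell. In Sh3gl1-/- cells the same network list gave 0 higher and 4 lower (57.1% called, against 42.4% of all genes), and Mxd3 did not pass there (-0.03 ± 0.50). Its mean was 1.20 CPM ex vivo and 1.19 CPM after CD40L in these cells, against 0.637 and 2.21 CPM in WT cells. The Mxd3 responses differed by -1.78 ± 0.71, which did not pass (adjusted p = 0.51 by edgeR's quasi-likelihood test). Of 46 other amino acid transporters 19 were expressed enough to test, of which 4 rose and 6 fell in WT cells. That share of 52.6% was close to the 49.3% of all genes. Slc7a6 (0.75 ± 0.13), a cationic and neutral amino acid exchanger, Slc38a6 (1.22 ± 0.31) and Slc7a3 (1.71 ± 0.63), a cationic transporter, rose. Slc38a9 (-0.90 ± 0.12), the lysosomal arginine sensor, Slc43a2 (-1.40 ± 0.22) and Slc16a10 (-1.27 ± 0.29) fell. Among Sh3gl1-/- cells 3 of these 19 rose and 3 fell, or 31.6% against 42.4% of all genes.

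The mTORC1 list, whose genes read the amino acids that the transporters bring in, had 29 of 31 tested. The share called was 31.0% in WT cells and 37.9% in Sh3gl1-/- cells, below the 49.3% and 42.4% of all genes. In WT cells 3 rose, namely Lamtor5 (0.55 ± 0.11), Mlst8 (0.77 ± 0.18) and Lamtor1 (0.38 ± 0.13), and 6 fell, among them Sesn3 (-0.998 ± 0.107) and Sesn1 (-1.01 ± 0.15), of the sestrin family, and Tsc1 (-0.68 ± 0.10), a subunit of the TSC complex. In Sh3gl1-/- cells 4 rose and 7 fell. Sesn2 and Eif4ebp1, which were picked after their values were seen, passed in these cells and not in WT cells. Sesn2, a leucine sensor that holds mTORC1 back, changed by 1.16 ± 0.26 in Sh3gl1-/- cells against 0.58 ± 0.27 in WT cells, a difference that did not pass. Eif4ebp1, the translation repressor, went from 3.67, 2.22 and 4.14 CPM to 17.3, 13.8 and 8.55 CPM in Sh3gl1-/- cells (1.96 ± 0.41, adjusted p = 0.0018 by edgeR's quasi-likelihood test) and from 10.7, 4.13 and 4.82 CPM to 7.02, 11.4 and 5.28 CPM in WT cells. Its difference between responses was 1.72 ± 0.57 (adjusted p = 0.47 by the same edgeR model).

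Comparing the genotypes directly within a state, none of the 10 genes passed in CD40L-cultured cells, where 0.0227% of 13188 genes did. At an unadjusted p under 0.05 there were 3, Slc38a2, Mxd4 and Slc7a11, against 932 of the 13188 genes (7.07%), and DESeq2 gave 0. Slc38a2 was higher in Sh3gl1-/- cells by 0.61 ± 0.17 on the log2 scale (adjusted p = 0.49 by edgeR's quasi-likelihood test), with an adjusted p from 0.016, when all genes with a count were kept, to 0.93 over the alternatives. Mxd4 stood at 0.41 ± 0.16 and Slc7a5 at -0.40 ± 0.18. These 3 genes and Slc7a11 had groups that did not overlap, as did 13.8% of all genes tested, and the smallest p of an exact permutation test of 3 against 3 libraries is 0.1. In ex vivo follicular cells none of the 9 genes tested passed, against 0.845% of all genes. Here 1 member, Myc, had an unadjusted p under 0.05, against 1481 of 13610 genes (10.9%), and DESeq2 gave 0. A share of 1 in 9 was close to that of all genes. Myc was higher in the 3 Sh3gl1-/- libraries without overlap (0.29 ± 0.10, adjusted p = 0.26 by edgeR's quasi-likelihood test), and Slc1a5 and Slc7a1 were lower without overlap (-0.19 ± 0.09 and -0.25 ± 0.13), while groups did not overlap for 16.0% of all genes. None of the 23 MYC-activated genes passed in either state. Their median was 0.10 ex vivo and -0.35 after CD40L, where 22 of 23 were lower in Sh3gl1-/- cells and 10 had an unadjusted p under 0.05, against 48.0% and 7.07% of all genes. Markers of other cells moved in these comparisons too. Ex vivo, all 7 T cell genes and 3 of 7 neutrophil genes were higher without overlap in Sh3gl1-/- libraries, with sums of 148 to 198 against 72.4 to 104 CPM and 168 to 784 against 57.6 to 175 CPM, and 4 of 5 B cell genes were lower (9588 to 10163 against 10738 to 11119 CPM). Under CD40L the same held for 4 of 7 T cell genes (19.8 to 25.2 against 13.2 to 15.2 CPM), 3 of 7 neutrophil genes (50.6 to 189 against 8.84 to 39.6 CPM) and 4 of 5 B cell genes (7085 to 7252 against 7762 to 8197 CPM). Their part in the genotype differences of Myc, Slc38a2 and the other genes was not tested.

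**Figure D4:**
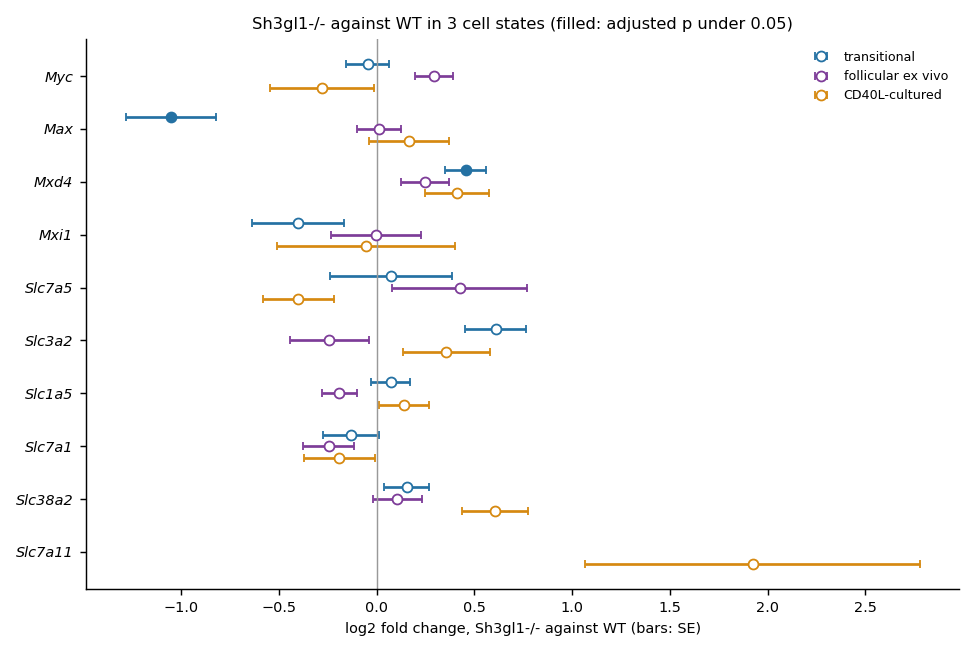
Log2 fold change of each gene in Sh3gl1-/- against WT cells (x axis) in transitional (blue), ex vivo follicular (purple) and CD40L-cultured cells (orange), with SE bars and filled symbols for an adjusted p under 0.05. The 2 filled symbols are Max at -1.05 and Mxd4 at 0.46 in transitional cells, and Slc7a11 is shown only where it had enough counts to test.

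In transitional cells 2 of 9 genes passed, against 3.73% of all 13774 genes tested. Mxd4 was higher and Max lower in Sh3gl1-/- cells, as were 1.26% and 2.48% of all genes, and groups did not overlap for 28.0% of them. At an unadjusted p under 0.05 edgeR's quasi-likelihood test gave 3 members, Max, Mxd4 and Slc3a2, against 2996 of all genes (21.8%). DESeq2 gave 3 members and 1361 genes at an adjusted p under 0.05. Max was at 134, 67.0 and 84.4 CPM in the WT libraries and at 38.7, 48.7 and 50.4 CPM in the Sh3gl1-/- ones, lower without overlap (-1.05 ± 0.23, adjusted p = 0.040 by edgeR's quasi-likelihood test). WT replicate 1 stood far above the rest, and without it the difference was -0.71. Mxd4 was higher, at 37.8, 39.4 and 40.3 CPM in Sh3gl1-/- libraries against 26.7, 31.1 and 27.9 CPM in WT (0.46 ± 0.10, adjusted p = 0.046 by edgeR's quasi-likelihood test). Both calls were lost when any 1 of the 6 libraries was left out, with the sizes at -1.26 to -0.71 for Max and 0.42 to 0.52 for Mxd4, and also with a replicate block. Slc3a2 was next, at 28.4, 33.4 and 39.3 CPM against 18.8, 22.1 and 25.3 CPM (0.61 ± 0.16, adjusted p = 0.064 by edgeR's quasi-likelihood test). It passed in DESeq2 (adjusted p = 0.011), with all genes with at least 1 count (0.0042 in edgeR) and with at least 10 counts in every library (0.04996 in edgeR). Of the list genes, Mxd3 (-1.82 ± 0.32), Ldha (-0.44 ± 0.10), the lactate dehydrogenase of glycolysis, and Nolc1 (-0.39 ± 0.09), a nucleolar factor, were lower in Sh3gl1-/- cells. Slc16a10 (1.13 ± 0.22), an aromatic amino acid transporter, and Rraga (0.61 ± 0.13), a Rag GTPase of mTORC1, were higher.

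Other markers moved with the same comparison. All 5 erythroid genes measured here (globins and Alas2) were higher in the Sh3gl1-/- transitional libraries, with a sum of 4449.9 to 9508 CPM against 2277 to 3999 CPM. So were 5 of 7 T cell genes (sum 83.3 to 131 against 52.1 to 79.2 CPM) and 3 of 7 neutrophil genes (110 to 551 against 51.2 to 91.6 CPM). Of 4 plasma cell genes 1 was higher without overlap (sum 1088 to 4563 against 428 to 667 CPM). Of 4 transitional markers 2 were lower without overlap (sum 505 to 805 against 871 to 1008 CPM), and 1 had an estimate in the other direction. All 3 marginal zone genes were lower without overlap (sum 537 to 646 against 779 to 812 CPM). The part of these markers in the Max and Mxd4 results was not tested. In bulk libraries fewer cells of a type and less RNA per cell cannot be told apart. Under CD40L all 7 T cell and all 5 erythroid genes were lower without overlap in both genotypes, the T cell sum going from 72.4 to 104 down to 13.2 to 15.2 CPM in WT and from 148 to 198 down to 19.8 to 25.2 CPM in Sh3gl1-/- cells. The erythroid sum went from 1433 to 3849 down to 6.54 to 362 CPM in WT and from 2977 to 9332.5 down to 31.6 to 114 CPM in Sh3gl1-/- cells. Of 5 B cell genes 4 were lower without overlap in each genotype. The T cell and erythroid genes all passed the test as lower in both genotypes, as did 4 (WT) and 3 (Sh3gl1-/-) of the B cell genes. Of all genes tested 25.7% in WT and 21.8% in Sh3gl1-/- cells passed as lower. The B cell sum was 7762 to 8197 against 10738 to 11119 CPM ex vivo in WT cells. In Sh3gl1-/- cells it was 7085 to 7252 against 9588 to 10163 CPM. The part of these marker changes in the responses of the 10 genes was not tested.

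Between the ex vivo states, which share the follicular libraries with the CD40L comparison, WT follicular cells had more Slc7a1 (0.77 ± 0.13, adjusted p = 9.7e-04) and Slc3a2 (0.66 ± 0.20, adjusted p = 0.030) and less Mxi1 (-1.03 ± 0.23, adjusted p = 0.0051) and Max (-0.81 ± 0.20, adjusted p = 0.0084, all by edgeR's quasi-likelihood test) than transitional cells. That is 4 of 9 genes, 2 up and 2 down, against 25.9% of all 14580 tested, 11.7% up and 14.2% down. The Slc3a2 difference no longer passed without WT follicular replicate 1 (0.34) or without WT transitional replicate 1 (0.55) or 2 (0.66), nor in the fit to all 18 libraries (0.65). In Sh3gl1-/- cells Slc7a1 (0.64 ± 0.13, adjusted p = 0.0062) and Myc (0.38 ± 0.11, adjusted p = 0.031, both by edgeR's quasi-likelihood test) were higher, 2 of 9 against 10.4% of all genes, 3.70% up and 6.71% down. The Myc call was lost without any 1 of the 3 follicular or of 2 of the transitional Sh3gl1-/- libraries (0.32 to 0.43), and in the fit to all 18 libraries. No member passed the test of the difference between the genotypes' steps, with 0.0686% of all genes passing, or 10 genes, and 99 with a replicate block within genotype. There were 4 of 9 at an unadjusted p under 0.05, against 1992 of 14580 genes (13.7%), and DESeq2 gave 1, Max, whose difference was 1.05 ± 0.28 (adjusted p = 0.14 by edgeR's quasi-likelihood test). Between these states 5 of 5 macrophage or monocyte genes were lower without overlap in WT follicular libraries (sum 122 to 157 against 420 to 509 CPM) and 3 of 5 in Sh3gl1-/- ones (126 to 279 against 367 to 667 CPM). The plasma cell sum was 64.0 to 128 against 428 to 667 CPM in WT and 142 to 177 against 1088 to 4563 CPM in Sh3gl1-/- libraries, with 1 of 4 genes lower without overlap in each. T cell genes were higher without overlap for 1 of 7 in WT and 6 of 7 in Sh3gl1-/- follicular libraries (148 to 198 against 83.3 to 131 CPM in the latter). All 4 transitional markers were lower in both genotypes. By the test 5 (WT) and 3 (Sh3gl1-/-) of the 5 macrophage or monocyte genes passed as lower, against 14.2% and 6.71% of all genes. Of the 7 T cell genes 1 (WT) and 0 (Sh3gl1-/-) passed as higher, against 11.7% and 3.70% of all genes. The part of these other cells in the steps of the 10 genes was not tested.

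Over the 18 libraries, the genes whose log2 CPM ran most like that of Myc, among 15117 expressed genes, were Imp4, Las1l and Tsr2 (Pearson's r 0.944, 0.944 and 0.942), all 3 known from ribosome production. Imp4 was at 135 ± 4.4 CPM in WT follicular cells ex vivo and 240 ± 36.5 CPM after CD40L, and at 141 ± 13.6 and 200 ± 17.4 CPM in Sh3gl1-/- cells. Those most like Mxd4 were Gm26540, 2810403D21Rik and Hpgds (0.917, 0.907 and 0.907). Hpgds, a prostaglandin D synthase, was at 17.8 ± 2.1 and 9.74 ± 0.39 CPM in WT cells before and after CD40L and at 26.8 ± 4.9 and 19.8 ± 3.0 CPM in Sh3gl1-/- cells. The libraries share their cell state, so these values describe the pattern and carry no p.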

How the data were processed

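Poly(A) RNA was sequenced from 18 libraries. The submitters' processing notes name cutadapt 1.9.1, STAR 2.5.2a, RSEM 1.3.0 and GRCm38, whereas the study's methods name other library and quantification tools and other culture times, and which applies was not settled. The deposited table holds expected counts, TPM and FPKM per gene, made by the authors. FPKM was not used. Expected counts were rounded and tested in R 4.3.3 with edgeR 4.0.16 (filterByExpr, TMM, quasi-likelihood F test, Benjamini-Hochberg over all genes tested, threshold 0.05), with 1 coefficient per group. Fits held 12 libraries for CD40L and for ex vivo states, and 6 for genotype within a state. Intervals are the estimate ± 1.96 SE. The deposited TPM served to compare levels between genes. The table has 51912 identifiers, of which 51719 have a symbol in the annotation used here. The 10 genes and the 4 lists of 109 other genes were chosen with earlier results of these data known.

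Named list genes are, per list, up to 3 that rose and 3 that fell under CD40L in WT cells, ranked by adjusted p, and every list gene called between genotypes. For Myc and Mxd4 the 3 best correlated genes were named. Replicates are taken as separate samples of a group, as the labels number them. Same-numbered libraries deviated together (each r over 0.1) between the ex vivo states of each genotype and between WT follicular and CD40L libraries, but not between FO and CD40L Sh3gl1-/- libraries or across genotypes. Library totals of 12404665 to 18366011 place 3 counts at 0.163 to 0.242 CPM, counting error only. Alternatives were DESeq2 1.42.0, its size factors in edgeR, 2 other count filters, a replicate block, a fit to all 18 libraries and leaving out each library. A replicate block within genotype was added after seeing the data. The fits were also run on simulated data with independent libraries and few changed genes. That run required only the right direction of change. It does not speak for comparisons in which many genes change or libraries deviate together. Some marker genes are not reported here, and the marker sums leave them out.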

Additional observations from a re-analysis of the deposited data

Results flagged for a closer look

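The estimates for Max from transitional to follicular cells had opposite signs in the 2 genotypes, and only the WT step passed the test. Every WT follicular library (50.3 to 60.3 CPM) was below every WT transitional library (67.0 to 134 CPM), with a log2 fold change of -0.81, whereas every Sh3gl1-/- follicular library (50.9 to 59.8 CPM) was above every Sh3gl1-/- transitional library (38.7 to 50.4 CPM), with a log2 fold change of 0.24 ± 0.20 that did not pass (adjusted p = 0.53 by edgeR's quasi-likelihood test). The difference of 1.05 ± 0.28 did not pass edgeR's quasi-likelihood test (adjusted p = 0.14) and passed in DESeq2 (adjusted p = 0.012). Without WT transitional replicate 1 it was 0.71.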

How the results depend on the processing

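All calls under CD40L in WT cells held under every alternative other than leaving out single libraries, and in Sh3gl1-/- cells the 4 calls held while up to 2 were added (Myc and Slc7a11 with all genes that had a count, Mxd4 in the fit to 18 libraries). With single libraries left out, the calls among the 10 genes numbered 5 to 6 in WT and 3 to 5 in Sh3gl1-/- cells, 0 in each case between genotypes in transitional cells, and 3 to 4 (WT) and 1 to 2 (Sh3gl1-/-) between ex vivo states.

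The replicate block across genotypes gave 0 member calls in transitional cells and 90 genes of 514, 212 genes in follicular cells ex vivo (115 without it), 21 in CD40L-cultured cells (3) and 20 for the difference between ex vivo steps (10). The block within genotype gave 99 there and changed no other call among the members. DESeq2 called 37 genes for the difference of CD40L responses, 355, 79 and 1361 between genotypes ex vivo, under CD40L and in transitional cells, and 365 genes with 1 member for the difference between ex vivo steps. With all genes that had a count these were 210, 602, 216, 1426 and 462, with 1 member between genotypes under CD40L and 2 for the ex vivo steps. Requiring 10 counts in every library gave 24 genes for the ex vivo steps, and the fit to 18 libraries gave 0, with the Slc3a2 call lost between ex vivo states in WT cells and 1 member call left in Sh3gl1-/- cells. The cause of these shifts was not tested.

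Values near 0 changed sign. The Mxi1 difference of CD40L responses was 5.5e-04 with the block within genotype, and between genotypes Mxi1 was 5.4e-04 ex vivo in DESeq2, 6.8e-04 with its size factors and 0.0286 under CD40L with the replicate block. The Slc7a1 difference of responses was -0.00485 in DESeq2 and -0.00446 with its size factors.

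With single libraries left out, gene counts ranged from 0 to 1 for the difference of CD40L responses, 32 to 112, 1 to 9 and 28 to 479 between genotypes ex vivo, under CD40L and in transitional cells, 2444 to 3773 and 986 to 1647 between ex vivo states in WT and Sh3gl1-/- cells, and 0 to 23 for their difference. The log2 fold change of these genes crossed 0, each given as its range. For the WT response to CD40L it was Slc3a2 -0.0902 to 0.43, Slc7a11 -0.30 to 2.04. For the Sh3gl1-/- response it was Max -0.24 to 0.15, Slc1a5 -0.14 to 0.0139. For the difference of responses it was Max -0.11 to 0.32, Mxi1 -0.40 to 0.19, Slc7a1 -0.082 to 0.17. For the genotypes ex vivo it was Max -0.0631 to 0.0949, Mxi1 -0.0879 to 0.13, Slc3a2 -0.38 to 0.0812, Slc38a2 -0.00775 to 0.21. For the genotypes under CD40L it was Max -0.0781 to 0.34, Mxi1 -0.40 to 0.20. For the transitional genotypes it was Myc -0.13 to 0.021, Slc7a5 -0.20 to 0.24. For the WT step between ex vivo states it was Myc -0.0193 to 0.12, Slc7a5 -0.0752 to 0.42. For the Sh3gl1-/- step it was Mxd4 -0.15 to 0.043. For the difference of steps it was Slc38a2 -0.18 to 0.0474.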
